A study of Mus musculus with 30 samples.

Results

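The comparison of Etv1 shRNA with control shRNA under IL-4 covers 6 of the 30 libraries of a macrophage RNA-seq series, namely the 3 libraries of cells given a short hairpin RNA (shRNA) against Etv1 and IL-4, set against the 3 libraries of cells given a control shRNA and IL-4. The members were taken by title, 3 per group, and all 12382 genes that passed the filter on low counts were compared. All 6 came from bone marrow of C57BL/6 mice, whose cells were grown to day 7 with CSF-1 at 20 ng/mL, under which marrow progenitors become macrophages. Both groups received a hairpin, delivered by lentivirus for Etv1 per the labels' protocols, and both received IL-4 at 20 ng/mL in medium with CSF-1. The labels give neither the length of the stimulation nor the age of the mice. They name a single Etv1 shRNA genotype and no hairpin sequence, so the knockdown was not compared with a second hairpin. Nor do they say if the 3 libraries of a group are 3 mice or cultures, and the p-values then speak only of the spread among libraries, which may be technical. The other libraries used below were the same 2 hairpins without stimulus and with IL-4 plus prostaglandin E2 (PGE2) at 10 µM, and wild type cells without any hairpin.

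Etv1 encodes a transcription factor of the ETS family, whose members bind DNA at a GGAA core and share that core with PU.1, the ETS factor that specifies macrophages. Etv1 belongs to the PEA3 subgroup with Etv4 and Etv5 and acts downstream of receptor tyrosine kinases and ERK in several tissues. IL-4 acts through STAT6 and drives the alternative activation of macrophages, a state known for arginase 1, RELMα (the product of Retnla) and chitinase-like proteins, and for its use of mitochondrial oxidation. The labels of the series put mitochondrial membrane potential and PGE2 at its centre, and the Etv1 knockdown was compared with the control hairpin in each stimulus.

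Library totals were 9286288 to 10344596 counts in Etv1 shRNA libraries and 9209367 to 14159884 in control shRNA libraries. Levels are given in CPM, counts relative to library size after TMM scaling, and 3 counts, the floor used here, equalled 0.22 to 0.34 CPM, which covers counting error only. Log2 CPM correlated at 0.991 to 0.992 across genes within the Etv1 shRNA group, at 0.988 to 0.993 within the control shRNA group and at 0.955 to 0.962 between the groups. Control shRNA replicate 2 stood apart by a chi-square over gene counts, in which highly expressed genes weigh most, and in interferon genes. Chi-square per degree of freedom between its counts and those of control shRNA replicates 1 and 3 was 17.35 and 12.13. Between replicates 1 and 3 it was 2.808, and within the Etv1 shRNA group it was 3.957 to 6.648. Replicate 2 of the control shRNA also stood apart unstimulated (20.34 and 13.14, against 4.61) and with IL-4 and PGE2 (16.52 and 16.74, against 3.358). The summed level of 33 interferon response genes was 1850, 2100 and 3480 CPM in Etv1 shRNA libraries, against 3340, 6140 and 2880 CPM in control shRNA libraries. Of the 33 genes, 30 were highest in control shRNA replicate 2, against 19.5% of all genes tested. List counts that moved by over 1.5 times without that library are given with and without it. The macrophage label held: Adgre1, which encodes F4/80, was at 3190, 2520 and 2770 CPM in Etv1 shRNA libraries, against 1830, 1250 and 1840 CPM in control shRNA libraries. Csf1r, the CSF-1 receptor, was at 1620, 1660 and 1660 CPM in Etv1 shRNA libraries, against 2550, 2450 and 2550 CPM in control shRNA libraries. Itgam, which encodes CD11b, was at 514, 442 and 499 CPM in Etv1 shRNA libraries, against 519, 366 and 480 CPM in control shRNA libraries, and these ranges overlapped.

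Etv1 itself was lower. It stood at 6, 4.97 and 5.02 CPM in Etv1 shRNA libraries, against 15.3, 11.5 and 14.9 CPM in control shRNA libraries, and the groups did not overlap. The log2 fold change of Etv1 shRNA over control shRNA was -1.39 ± 0.19 (± SE, edgeR adjusted p = 4.41e-06). With 1 library left out it ran from -1.51 to -1.33.

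The hairpin contrast under IL-4 reached a large part of the transcriptome. Of 12382 genes, 6317 (51.0%) were called at an adjusted p under 0.05, 3145 of them higher (25.4%) and 3172 lower (25.6%) in Etv1 shRNA cells. At least 2-fold changes were called for 614 higher (4.96%) and 753 lower genes (6.08%). The median log2 fold change over all genes was -0.00429, and libraries of the 2 groups did not overlap for 57.9% of the genes tested. Counts of list members below are to be read against these shares. With 1 library left out the number of called genes ran from 5548 to 5981.

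Genes at low levels in control shRNA cells led the higher side. In what follows, a value in parentheses after a gene is its log2 fold change of Etv1 shRNA over control shRNA, with its SE after the ± sign, and a gene called higher or lower passed edgeR's quasi-likelihood test at an adjusted p under 0.05. Nedd4 (ENSMUSG00000032216, chromosome 9, 72662346 to 72749852, plus strand), which encodes a ubiquitin ligase, was at 63.5, 65.9 and 39.6 CPM in Etv1 shRNA libraries, against 0.586, 1.02 and 0.676 CPM in control shRNA libraries. Its log2 fold change of 6.24 ± 0.44 (adjusted p = 4.87e-08) was the largest of the called genes that reached 5 CPM in 1 group and did not overlap. Mmp9, a gelatinase that cuts matrix, was at 18.3, 5.34 and 18.1 CPM in Etv1 shRNA libraries, against 0.293, 0 and 0.225 CPM in control shRNA libraries (6.11 ± 1.02, adjusted p = 0.000238), with Etv1 shRNA replicate 2 well below the other 2. Several genes of the actin skeleton and the cell surface were among the 15 largest. Cttn, the branched actin protein cortactin, stood at 97.2, 93.4 and 67.6 CPM in Etv1 shRNA libraries, against 4.1, 4.74 and 2.37 CPM in control shRNA libraries (4.50 ± 0.30). Scin, which severs actin filaments, was at 8.8, 7.37 and 9.96 CPM in Etv1 shRNA libraries, against 0, 0.452 and 0.225 CPM in control shRNA libraries (5.43 ± 0.63). Chpf, an enzyme that extends chondroitin chains, was at 100, 97.5 and 91.6 CPM in Etv1 shRNA libraries, against 3.81, 6.55 and 4.06 CPM in control shRNA libraries (4.36 ± 0.24). Absence of overlap between the groups was a condition for entry to the 15 largest, so it adds nothing here. Itga8, an integrin alpha chain, was at 43.4, 29.8 and 41 CPM in Etv1 shRNA libraries, against 3.66, 2.82 and 2.37 CPM in control shRNA libraries (3.64 ± 0.21). Tnfsf4, the OX40 ligand, was at 15.3, 13.3 and 8.19 CPM in Etv1 shRNA libraries, against 1.17, 1.02 and 0.564 CPM in control shRNA libraries (3.67 ± 0.34). The other members were Ptprk (5.06), a receptor phosphatase, Cpne8 (4.46), a copine that binds membranes, Adam19 (3.90), a metalloprotease, Col4a6 (3.82), a basement membrane collagen chain that adjoins Col4a5, and the noncoding Snhg11 (3.57).

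Transcripts better known from B cells were on the same list. Fcrl1, a receptor-like protein of B cells, was at 27, 24.7 and 26.1 CPM in Etv1 shRNA libraries, against 1.1, 1.81 and 1.24 CPM in control shRNA libraries (4.26 ± 0.17). Ighm, the constant region of the IgM heavy chain, was at 30.4, 14.8 and 25.4 CPM in Etv1 shRNA libraries, against 0.952, 1.36 and 1.47 CPM in control shRNA libraries (4.26 ± 0.53). The summed level of 13 lymphocyte markers was 15.7 to 31 CPM in Etv1 shRNA libraries and 3.5 to 5.07 CPM in control shRNA libraries, and Ighm made up most of it in Etv1 shRNA libraries. Cd79b, a partner of the B cell receptor, went the other way, at 0.103, 0.184 and 0.093 CPM in Etv1 shRNA libraries, against 1.39, 1.24 and 1.69 CPM in control shRNA libraries (-3.39 ± 0.54). Cd3e, Cd3g, Cd8a, Ncr1, Nkg7 and Trbc2 had no count in any of the 6 libraries. In bulk libraries, fewer or more cells of a type and less or more RNA per cell cannot be told apart, here and in the other lists.

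On the lower side stood receptors and regulators of myeloid cells. Slamf7 (ENSMUSG00000038179, chromosome 1, 171632403 to 171653035, minus strand), a surface receptor of the SLAM family, was at 2.9, 5.43 and 4.19 CPM in Etv1 shRNA libraries, against 72.4, 123 and 79 CPM in control shRNA libraries, a log2 fold change of -4.43 ± 0.28 (adjusted p = 1.22e-08). Csf3r, the G-CSF receptor, was at 1.97, 3.59 and 3.54 CPM in Etv1 shRNA libraries, against 38.9, 28.2 and 37.1 CPM in control shRNA libraries (-3.51 ± 0.26). Cd300lf, an inhibitory myeloid receptor, was at 6.83, 7.27 and 10.7 CPM in Etv1 shRNA libraries, against 106, 70.6 and 79.8 CPM in control shRNA libraries (-3.37 ± 0.30). Cd34, a sialomucin of progenitors, was at 4.55, 3.22 and 4.93 CPM in Etv1 shRNA libraries, against 41.9, 40.7 and 38.8 CPM in control shRNA libraries (-3.26 ± 0.16). These genes were chosen with no overlap between the groups, so each was low in every Etv1 shRNA library by selection. Among secreted products, Npy, neuropeptide Y, was at 6.52, 6.63 and 4.93 CPM in Etv1 shRNA libraries, against 45.2, 106 and 52.4 CPM in control shRNA libraries (-3.48 ± 0.48), with control shRNA replicate 2 the highest. Gdf15, a cytokine of cell stress, was at 3.93, 3.59 and 3.54 CPM in Etv1 shRNA libraries, against 31.2, 33.3 and 33.2 CPM in control shRNA libraries (-3.14 ± 0.17), with little spread in either group. Ndufaf2, an assembly factor of mitochondrial complex I, was at 1.14, 1.1 and 1.02 CPM in Etv1 shRNA libraries, against 9.22, 9.04 and 10.1 CPM in control shRNA libraries (-3.11 ± 0.17, adjusted p = 3e-11). Tent5c, a poly(A) polymerase, was at 6.52, 7.37 and 5.95 CPM in Etv1 shRNA libraries, against 57.3, 62.1 and 57.7 CPM in control shRNA libraries (-3.16 ± 0.12). Ly6a, which encodes Sca-1, was at 8.38, 14.6 and 7.35 CPM in Etv1 shRNA libraries, against 75, 92.7 and 85.3 CPM in control shRNA libraries (-3.05 ± 0.27). The remaining members were Ceacam19 (-4.58), Rab15 (-4.36), a small GTPase, the chemokine Ccl12 (-3.29), Tmem176b (-3.27) and Ablim1 (-3.25), an actin-binding protein.

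Lyl1 (ENSMUSG00000034041, chromosome 8, 84701457 to 84704715, plus strand), a helix-loop-helix transcription factor of blood progenitors, was at 2.28, 1.29 and 2.14 CPM in Etv1 shRNA libraries, against 16.4, 18 and 15.2 CPM in control shRNA libraries (-3.12 ± 0.20, adjusted p = 2.95e-10). Its promoter is shown because it alone, among the 11 higher and 14 lower of these genes that matched a RefSeq promoter, held the ETS core letters CCGGAA on either strand. The sequence is RefSeq's on GRCm38.p6, chr8:84701207-84701456, plus strand, the 250 bases before the start site, with both matches in capitals.
Lyl1 promoter: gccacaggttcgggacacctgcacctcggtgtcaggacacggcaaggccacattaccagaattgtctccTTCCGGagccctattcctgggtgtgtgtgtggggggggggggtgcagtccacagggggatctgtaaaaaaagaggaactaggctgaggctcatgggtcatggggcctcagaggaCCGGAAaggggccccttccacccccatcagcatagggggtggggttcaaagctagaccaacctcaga
The matches began 181 and 67 bases before the start site (-181 and -67), the first on the opposite strand. In windows from 250 bases before to 50 after the start site, 30.0% of the 9475 promoters matched among all genes tested held those 6 letters, against 30.1% of 2485 promoters of higher genes and 26.9% of 2501 promoters of lower genes. Among genes changed at least 2-fold the share was 17.3% of 434 promoters for higher and 14.1% of 561 for lower genes, and it was 31.7% for genes not called. A match is only a description of the letters in this window.

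**Figure D1:**
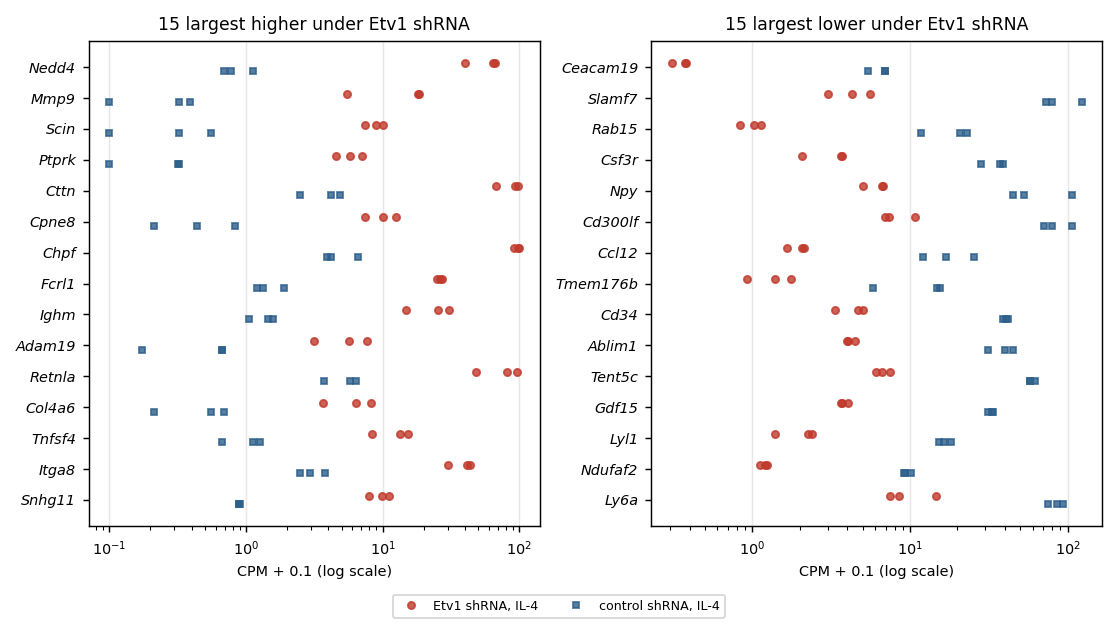
Level of the 15 higher and 15 lower genes with the largest log2 fold change, 1 point per library, as CPM + 0.1 on a log axis. Circles are Etv1 shRNA and squares control shRNA libraries under IL-4. Genes were chosen to have no overlap between the groups. Nedd4 runs from 39.6 to 65.9 CPM in Etv1 shRNA libraries and from 0.586 to 1.02 CPM in control shRNA libraries.

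Genes of alternative activation were mostly lower, with a few exceptions. Of 30 tested members of that list, 4 were higher and 16 lower, with a median log2 fold change of -0.70. Arg1 (ENSMUSG00000019987, chromosome 10, 24915221 to 24927484, minus strand), arginase 1, was at 223, 173 and 276 CPM in Etv1 shRNA libraries, against 681, 502 and 607 CPM in control shRNA libraries (-1.42 ± 0.20, adjusted p = 5.36e-05). Chil3, a chitinase-like protein, was at 6.11, 5.16 and 7.16 CPM in Etv1 shRNA libraries, against 8.57, 10.3 and 10.9 CPM in control shRNA libraries (-0.68 ± 0.18, adjusted p = 0.0045). Retnla (ENSMUSG00000061100, chromosome 16, 48842551 to 48844461, plus strand), which encodes the secreted protein RELMα, went the opposite way, at 81.2, 48.3 and 95.6 CPM in Etv1 shRNA libraries, against 5.64, 3.61 and 6.31 CPM in control shRNA libraries (3.84 ± 0.34, adjusted p = 1.98e-06). No library of either group overlapped for these genes. The 4 members with the smallest adjusted p were all lower. Tgm2, a transglutaminase, was at 301, 368 and 343 CPM in Etv1 shRNA libraries, against 814, 726 and 781 CPM in control shRNA libraries (-1.20 ± 0.088). Batf3, a transcription factor of the AP-1 family, was at 5.28, 3.77 and 6.14 CPM in Etv1 shRNA libraries, against 25.7, 20 and 30.4 CPM in control shRNA libraries (-2.33 ± 0.20). Cish, a feedback inhibitor of STAT signalling, was at 18.7, 19.3 and 22.3 CPM in Etv1 shRNA libraries, against 101, 66.2 and 97.9 CPM in control shRNA libraries (-2.14 ± 0.15). Clec7a, the β-glucan receptor Dectin-1, was at 107, 93.2 and 133 CPM in Etv1 shRNA libraries, against 383, 449 and 361 CPM in control shRNA libraries (-1.84 ± 0.15). Named after their values were seen, Socs1 (-1.59 ± 0.18), Pdcd1lg2 (-1.83 ± 0.21), which encodes PD-L2, and Flt1 (-1.82 ± 0.18) were lower too. The other higher members, also named afterwards, were Fn1, fibronectin, at 47, 26.7 and 39.4 CPM in Etv1 shRNA libraries, against 4.61, 3.05 and 3.38 CPM in control shRNA libraries (3.31 ± 0.36), Tfrc (0.45 ± 0.081), the transferrin receptor, and Ptgs1 (0.49 ± 0.13), cyclooxygenase 1.

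Genes that responded strongly to IL-4 in wild type cells, defined in libraries that the hairpin contrast did not use, were examined next. Of 496 tested genes that IL-4 raised at least 2-fold in wild type cells, 72 (14.5%) were higher and 253 (51.0%) lower in Etv1 shRNA cells, against 25.4% and 25.6% of all genes. Their median log2 fold change was -0.536. Of 335 tested genes that IL-4 lowered at least 2-fold, 125 (37.3%) were higher and 71 (21.2%) lower, with a median of 0.144. The shift was small when genes of any fold were taken: 642 of 2974 raised genes were higher and 1022 lower (median -0.0687), and 814 of 2793 lowered genes were higher and 768 lower (median -0.00608). At 4-fold the medians were -0.676 and 0.476. In the unstimulated hairpin contrast, which shares no library with the one under IL-4, the medians of the 2-fold sets were 0.0736 for the raised and -0.394 for the lowered genes. Of the 496 raised genes 93, and of the 335 lowered genes 86, had a hairpin effect that differed between IL-4 and no stimulus, against 4.51% of all genes. With IL-4 and PGE2 the medians were -0.662 and 0.222.

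**Figure D2:**
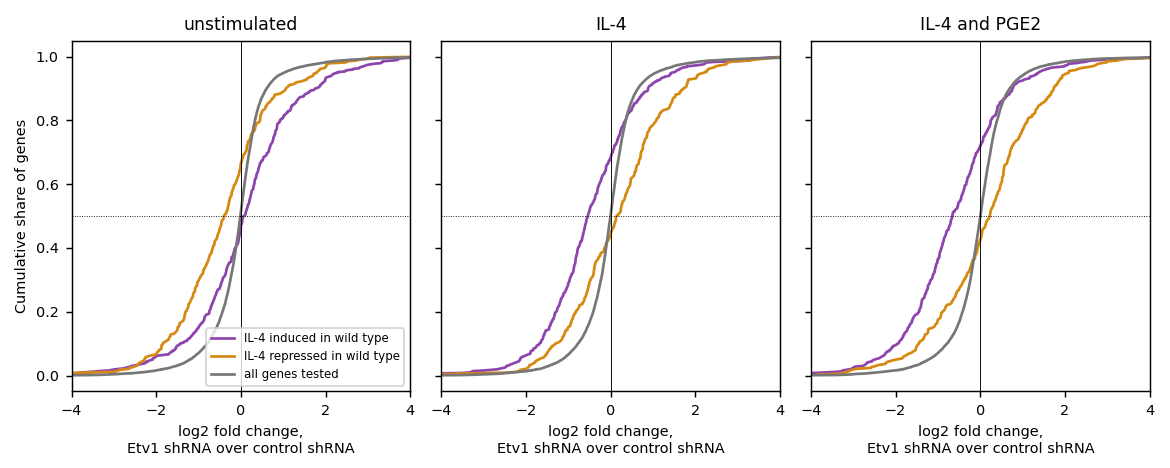
Cumulative share of genes (y axis) by log2 fold change of Etv1 shRNA over control shRNA (x axis), in unstimulated cells, with IL-4 and with IL-4 and PGE2. Purple lines are 496 genes raised and orange lines 335 genes lowered at least 2-fold by IL-4 in wild type cells, and grey lines are all 12382 genes; under IL-4 the purple line crosses its midpoint at -0.536 and the orange line at 0.144.

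Other ETS factors and the feedback genes of ERK signalling moved in both directions. Of 18 tested ETS factors, a list that holds Etv1 itself, 5 were higher and 9, Etv1 among them, were lower. Ets1 was at 4.24, 3.87 and 4.19 CPM in Etv1 shRNA libraries, against 19.7, 19.3 and 18.3 CPM in control shRNA libraries (-2.22 ± 0.21). Fli1 was at 29.3, 31.9 and 28.2 CPM in Etv1 shRNA libraries, against 52.9, 56.9 and 58.3 CPM in control shRNA libraries (-0.91 ± 0.07). Etv3, a repressor of the family, was at 332, 325 and 335 CPM in Etv1 shRNA libraries, against 569, 579 and 555 CPM in control shRNA libraries (-0.78 ± 0.06). Their edgeR adjusted p-values, by which they were picked from the list, lay between 2.78e-09 and 1.21e-07. Etv5, a PEA3 member named after its values were seen, was at 168, 151 and 173 CPM in Etv1 shRNA libraries, against 150, 129 and 151 CPM in control shRNA libraries (0.19 ± 0.15, adjusted p = 0.306) and did not pass the test. By at least 2-fold, 1 ETS factor was higher and 3 were lower, and log2 fold changes on the list ran from -2.22 to 2.41. None of the higher members is named here. With 1 library left out, 3 or 4 ETS factors were higher. Of 22 ERK and RAS feedback genes, 8 were higher and 8 lower. Dusp5 (ENSMUSG00000034765, chromosome 19, 53529109 to 53542431, plus strand), a phosphatase that removes ERK phosphorylation in the nucleus, was at 47.9, 43.4 and 51 CPM in Etv1 shRNA libraries, against 8.79, 9.37 and 10.5 CPM in control shRNA libraries (2.32 ± 0.096, adjusted p = 5.38e-13). The other genes of this kind split. Dusp6, which acts on ERK in the cytoplasm, was at 47.8, 40.3 and 49 CPM in Etv1 shRNA libraries, against 97.8, 91.7 and 96.6 CPM in control shRNA libraries (-1.06 ± 0.082). Fosl1, an AP-1 subunit, was at 19.7, 15.6 and 19.4 CPM in Etv1 shRNA libraries, against 5.34, 4.29 and 5.3 CPM in control shRNA libraries (1.86 ± 0.16). Spred2, an inhibitor of RAS signalling, was at 72.5, 69.6 and 65.4 CPM in Etv1 shRNA libraries, against 34.9, 36.1 and 38.1 CPM in control shRNA libraries (0.93 ± 0.10). The libraries of these genes did not overlap, which their choice by smallest adjusted p largely set in advance.

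Changes in the malate-aspartate shuttle and the TCA cycle were small. Got1 encodes the cytosolic aminotransferase in the shuttle of malate and aspartate, by which reducing equivalents enter mitochondria. It was at 39, 38.7 and 38.3 CPM in Etv1 shRNA libraries, against 42.2, 47.6 and 40.5 CPM in control shRNA libraries (-0.16 ± 0.09, adjusted p = 0.137), so its lower level did not pass the test. Of the 7 shuttle genes, 2 were higher and 1 lower, and without control shRNA replicate 2 there were 2 lower. Mdh1, the cytosolic malate dehydrogenase, was at 195, 184 and 194 CPM in Etv1 shRNA libraries, against 130, 143 and 124 CPM in control shRNA libraries (0.53 ± 0.067). Got2, the mitochondrial aminotransferase, was higher too (0.25 ± 0.069). Slc25a11, the oxoglutarate carrier, was at 75.3, 78.1 and 78.9 CPM in Etv1 shRNA libraries, against 107, 106 and 121 CPM in control shRNA libraries (-0.52 ± 0.061). Got2 lost its call without control shRNA replicate 1 (0.158, adjusted p = 0.0722). Slc25a13, an aspartate-glutamate carrier, did not pass (-0.25 ± 0.10, adjusted p = 0.0512). Of 24 TCA cycle genes, 13 were higher and 2 lower, and none changed by 2-fold. The count lower was 1 without Etv1 shRNA replicate 1 or 2 or control shRNA replicate 1 or 2. Pdha1, a subunit of pyruvate dehydrogenase, was at 162, 161 and 149 CPM in Etv1 shRNA libraries, against 105, 103 and 105 CPM in control shRNA libraries (0.59 ± 0.05). Cs, citrate synthase, was at 330, 335 and 317 CPM in Etv1 shRNA libraries, against 260, 267 and 256 CPM in control shRNA libraries (0.32 ± 0.043), and Aco1, an aconitase, at 0.45 ± 0.061.

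For the respiratory chain, 22 of 74 nuclear genes were higher and 18 lower, close to the shares over all genes, with a median of 0.0149. Ndufv2 (-0.76 ± 0.068), a complex I subunit, and Uqcrq (-0.52 ± 0.071), a complex III subunit, were lower, while Ndufa3 (0.45 ± 0.064) and Sdhc (0.36 ± 0.054) were higher. Of 11 tested genes of mitochondrial DNA, 2 were higher and 1 lower, and mitochondrial transcripts held 1.08% to 1.14% of counts in Etv1 shRNA libraries and 1.02% to 1.10% in control shRNA libraries. Leaving out any 1 library other than control shRNA replicate 1 left 1 mitochondrial gene higher, and none lower without Etv1 shRNA replicate 1 or control shRNA replicate 2. The count of higher respiratory genes was 11 without control shRNA replicate 1 and 14 without Etv1 shRNA replicate 1, and without control shRNA replicate 3 that of lower ones was 11. In glycolysis, 9 of 25 genes were higher and 8 lower, among them Gapdh (-0.64 ± 0.061) and the neuronal enolase Eno2, at 1.86, 1.57 and 1.49 CPM in Etv1 shRNA libraries, against 8.49, 7.45 and 8.23 CPM in control shRNA libraries (-2.30 ± 0.25). Among HIF targets, 6 of 20 were higher and 3 lower, and 3 were higher without control shRNA replicate 2 or Etv1 shRNA replicate 1.

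Genes of sterol synthesis were mostly higher. Of 23 tested members, 15 were higher, 1 was lower and 7 were not called, with a median log2 fold change of 0.582, and 9 were higher by at least 2-fold. With 1 library left out, 13 to 17 were higher and 0 to 2 lower. Msmo1, a sterol demethylase, was at 116, 112 and 105 CPM in Etv1 shRNA libraries, against 36.5, 43.9 and 34.6 CPM in control shRNA libraries (1.54 ± 0.081). Insig1, which holds the sterol sensor in the endoplasmic reticulum, was at 46.9, 44.3 and 44.4 CPM in Etv1 shRNA libraries, against 16.7, 16.7 and 19.9 CPM in control shRNA libraries (1.35 ± 0.09). Stard4, a cholesterol carrier, was at 21.8, 22.5 and 19.4 CPM in Etv1 shRNA libraries, against 6.37, 7.57 and 7.1 CPM in control shRNA libraries (1.61 ± 0.11). These 3 genes were picked by smallest adjusted p, so the distance between their groups adds nothing. Sqle, squalene epoxidase, named after its values were seen, was at 1.48 ± 0.11. Among 13 genes of lipid export and LXR, the nuclear receptor that senses oxysterols, 6 were higher and 2 lower, or 1 lower without control shRNA replicate 2. Abcg1, which exports cholesterol, was at 147, 147 and 168 CPM in Etv1 shRNA libraries, against 514, 586 and 558 CPM in control shRNA libraries (-1.84 ± 0.13). Scd2, a fatty acid desaturase, was at 51.6, 37.2 and 40.4 CPM in Etv1 shRNA libraries, against 15.3, 13 and 20.3 CPM in control shRNA libraries (1.41 ± 0.17). Lpl, lipoprotein lipase, was at 6510, 5540 and 6060 CPM in Etv1 shRNA libraries, against 4060, 4140 and 4030 CPM in control shRNA libraries (0.57 ± 0.068). Of 20 fatty acid oxidation genes, 9 were higher and 3 lower, and 5 were higher without control shRNA replicate 1, with Acadm, a dehydrogenase of medium chains, at 140, 141 and 139 CPM in Etv1 shRNA libraries, against 92.6, 94.7 and 98.6 CPM in control shRNA libraries (0.56 ± 0.051).

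Stress-response genes went both ways. In the integrated stress response, in which ATF4 induces amino acid enzymes and CHOP, 10 of 28 genes were higher and 12 lower. Ddit3, which encodes CHOP, was at 13.9, 13.1 and 12.5 CPM in Etv1 shRNA libraries, against 46.2, 47.4 and 49.9 CPM in control shRNA libraries (-1.86 ± 0.085, adjusted p = 2.12e-12). Atf3 was at 292, 266 and 310 CPM in Etv1 shRNA libraries, against 640, 751 and 686 CPM in control shRNA libraries (-1.26 ± 0.096). Cebpb was at 78.1, 77.7 and 80.3 CPM in Etv1 shRNA libraries, against 153, 183 and 191 CPM in control shRNA libraries (-1.16 ± 0.096). Chac1, a glutathione-degrading enzyme named after its values were seen, was instead higher, at 7.35, 5.25 and 5.02 CPM in Etv1 shRNA libraries, against 1.24, 1.69 and 2.25 CPM in control shRNA libraries (1.80 ± 0.28). Of 20 NRF2 targets, 4 were higher and 3 lower, but the count higher was 2 without Etv1 shRNA replicate 1 or 2 or control shRNA replicate 1 or 3, and the count lower was 5 without control shRNA replicate 1. Hmox1, heme oxygenase, was at 2520, 2760 and 2300 CPM in Etv1 shRNA libraries, against 725, 1210 and 824 CPM in control shRNA libraries (1.46 ± 0.14). Fth1, the ferritin heavy chain, was at 3980, 4310 and 4010 CPM in Etv1 shRNA libraries, against 5620, 7550 and 6390 CPM in control shRNA libraries (-0.67 ± 0.096). Of 16 p53 targets, 3 were higher and 11 lower. Gadd45a, a stress-induced growth inhibitor, was at 6.11, 7.37 and 4.75 CPM in Etv1 shRNA libraries, against 42.5, 39 and 38.1 CPM in control shRNA libraries (-2.72 ± 0.12). Mdm2, the ligase that degrades p53, was at 298, 307 and 310 CPM in Etv1 shRNA libraries, against 560, 501 and 532 CPM in control shRNA libraries (-0.80 ± 0.048).

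Mitosis genes were lower as a group. Of 27 members none was higher and 19 were lower, with a median log2 fold change of -0.612, and 18 to 20 were lower when 1 library was left out. Mki67, the proliferation marker Ki-67, was at 49.8, 53 and 49.8 CPM in Etv1 shRNA libraries, against 103, 82.9 and 90.8 CPM in control shRNA libraries (-0.86 ± 0.086, adjusted p = 1.07e-07). Anln, which acts at the cleavage furrow, was at 10.1, 9.48 and 8.84 CPM in Etv1 shRNA libraries, against 23.1, 17.5 and 23 CPM in control shRNA libraries (-1.17 ± 0.12). Prc1, a spindle midzone protein, was at 14.3, 16.2 and 15.6 CPM in Etv1 shRNA libraries, against 28.3, 29.1 and 27.4 CPM in control shRNA libraries (-0.88 ± 0.10). Ccnb1, cyclin B1, was at 9, 10 and 10.4 CPM in Etv1 shRNA libraries, against 19, 17.4 and 19.6 CPM in control shRNA libraries (-0.93 ± 0.11). All 4 were picked by the smallest adjusted p of this contrast, so their separation between the groups adds nothing. DNA replication genes were called in both directions, with 5 of 28 higher and 5 lower. The counts were 3 higher without control shRNA replicate 1, and 3 lower without either Etv1 shRNA replicate 3 or control shRNA replicate 2. Fen1, the flap endonuclease, was at 1.03 ± 0.066, and Rrm2, a subunit of ribonucleotide reductase, at -0.98 ± 0.10.

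Antigen presentation was lower. Of 18 tested members, 1 was higher and 14 lower, with a median of -0.715, and 11 to 14 were lower and 0 or 1 higher with 1 library left out. B2m, the light chain of MHC class I, was at 1200, 1160 and 1220 CPM in Etv1 shRNA libraries, against 2270, 1980 and 2230 CPM in control shRNA libraries (-0.86 ± 0.078, adjusted p = 3.12e-08). H2-D1, a class I heavy chain with close paralogs, was at -0.50 ± 0.062. H2-DMa, which loads class II peptides, was at 14.5, 15.3 and 15.3 CPM in Etv1 shRNA libraries, against 25.3, 25.9 and 23.6 CPM in control shRNA libraries (-0.73 ± 0.095). The costimulatory receptor Cd40 was at 30.3, 19.7 and 29.3 CPM in Etv1 shRNA libraries, against 91.4, 71.2 and 83.7 CPM in control shRNA libraries (-1.64 ± 0.20). Class II genes, named after their values were seen, were at low levels. H2-Ab1 was at 5.38, 8.1 and 4.84 CPM in Etv1 shRNA libraries, against 9.59, 14.6 and 15.9 CPM in control shRNA libraries (-1.10 ± 0.29). H2-Eb1 and H2-Aa were lower too (-1.17 ± 0.31 and -1.13 ± 0.41). Their invariant chain Cd74 was at 46.6, 70.6 and 46.3 CPM in Etv1 shRNA libraries, against 84.7, 125 and 111 CPM in control shRNA libraries (-0.96 ± 0.32). The libraries of H2-Aa overlapped. Both calls were lost when Etv1 shRNA replicate 1 or 3 or control shRNA replicate 2 or 3 was left out, with adjusted p from 0.0957 to 0.12 for H2-Aa and from 0.0583 to 0.0842 for Cd74. Lysosomal genes were also lower more often than higher, with 6 of 30 higher and 17 lower. Cd68 was at 639, 657 and 660 CPM in Etv1 shRNA libraries, against 1120, 1180 and 1140 CPM in control shRNA libraries (-0.82 ± 0.045). The cholesterol transporters Npc1 and Npc2 were at -0.87 ± 0.063 and -0.95 ± 0.069, while Glb1, β-galactosidase, was at 0.54 ± 0.057.

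The interferon count depended on single libraries, control shRNA replicate 2 among them. Of 33 tested genes none was higher and 8 were lower, with a median of -0.723. Without control shRNA replicate 2 the median was -0.209 and 2 genes were lower; without Etv1 shRNA replicate 1 also 2 were lower, and without Etv1 shRNA replicate 2, 4 were. Mx1, an antiviral GTPase, was at 9.31, 14.6 and 29.1 CPM in Etv1 shRNA libraries, against 141, 166 and 99.2 CPM in control shRNA libraries (-2.92 ± 0.41, adjusted p = 6.13e-05). Bst2, which tethers budding virus, was at 124, 113 and 154 CPM in Etv1 shRNA libraries, against 326, 270 and 310 CPM in control shRNA libraries (-1.22 ± 0.16); both sets of libraries were separated. Irf7 (-0.99 ± 0.31) had adjusted p = 0.0188. Its call was lost without control shRNA replicate 2 (-0.816, adjusted p = 0.0706), without Etv1 shRNA replicate 1 (-0.799, adjusted p = 0.0778) or 2 (-0.888, adjusted p = 0.0686) and in the 6 libraries alone (-0.984, adjusted p = 0.0659). Mx2 (-1.48 ± 0.45) had adjusted p = 0.0135, and lost its call without control shRNA replicate 2 (-1.16, adjusted p = 0.0611) or Etv1 shRNA replicate 1 (-1.25, adjusted p = 0.0558). Ifit3, named after its values were seen, was at 17.5, 23.8 and 49.5 CPM in Etv1 shRNA libraries, against 62.5, 246 and 48 CPM in control shRNA libraries, where control shRNA replicate 2 was several times the other controls, and without that library its adjusted p was 0.34.

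Il10 rose while several inflammatory products fell. Of 13 tested mediators 2 were higher and 6 lower, with 1 higher without Etv1 shRNA replicate 2 or control shRNA replicate 1. Il10, an anti-inflammatory cytokine, was at 33.8, 37.9 and 24.1 CPM in Etv1 shRNA libraries, against 3, 3.28 and 2.71 CPM in control shRNA libraries (3.41 ± 0.26, adjusted p = 3.36e-08). Tnf was at 11.3, 12.5 and 9.96 CPM in Etv1 shRNA libraries, against 28.4, 29.8 and 24.6 CPM in control shRNA libraries (-1.30 ± 0.14). Csf1 was at 7.04, 5.98 and 9.3 CPM in Etv1 shRNA libraries, against 29.6, 21.5 and 23.6 CPM in control shRNA libraries (-1.75 ± 0.16). Tnfaip3, which restrains NF-κB, was at 22.1, 22.1 and 26 CPM in Etv1 shRNA libraries, against 73.5, 68.6 and 75.2 CPM in control shRNA libraries (-1.63 ± 0.095). Il10 was high, and the other 3 low, in every Etv1 shRNA library, but they were picked by smallest adjusted p. Of 20 chemokines, 4 were higher and 10 lower. Cxcl16 was at 35.7, 47.6 and 35.3 CPM in Etv1 shRNA libraries, against 124, 141 and 141 CPM in control shRNA libraries (-1.77 ± 0.14). Ccl3 was at 12.9, 13.4 and 15.9 CPM in Etv1 shRNA libraries, against 51.6, 32.6 and 47.3 CPM in control shRNA libraries (-1.64 ± 0.20). Ccl5 was at 0.31, 0.46 and 0.372 CPM in Etv1 shRNA libraries, against 3.44, 4.74 and 2.71 CPM in control shRNA libraries (-3.20 ± 0.36). The libraries of these 3 ligands, also picked by smallest adjusted p, did not overlap. Cxcl2, named after its values were seen, was at 0.931, 1.93 and 1.58 CPM in Etv1 shRNA libraries, against 7.83, 8.7 and 6.76 CPM in control shRNA libraries (-2.36 ± 0.41). The platelet chemokines Pf4 and Ppbp were higher instead, Pf4 at 247, 235 and 193 CPM in Etv1 shRNA libraries, against 119, 56.2 and 120 CPM in control shRNA libraries (1.18 ± 0.35). Ppbp was at 4.35, 4.79 and 3.35 CPM in Etv1 shRNA libraries, against 0.952, 0.113 and 0.789 CPM in control shRNA libraries (2.63 ± 0.42). Among 17 receptors for chemoattractants, 2 were higher and 7 lower, and 1 was higher without Etv1 shRNA replicate 3 or control shRNA replicate 2 or 3. Ccr3, the eotaxin receptor, was at 47.1, 44.6 and 32.5 CPM in Etv1 shRNA libraries, against 9.22, 11.1 and 10.9 CPM in control shRNA libraries (2.00 ± 0.17). Ccr2, the receptor for monocyte chemoattractants, was at 5.69, 4.97 and 8.93 CPM in Etv1 shRNA libraries, against 18.3, 18.4 and 16 CPM in control shRNA libraries (-1.43 ± 0.22), and C3ar1, the C3a receptor, at -0.70 ± 0.072.

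Matrix and adhesion genes split. Of 21 genes for matrix and its proteases, 7 were higher and 7 lower. Beside Mmp9, Tgfbi was at 1020, 966 and 938 CPM in Etv1 shRNA libraries, against 524, 498 and 532 CPM in control shRNA libraries (0.91 ± 0.077). Mmp14, a membrane-bound protease named after its values were seen, was at 9.42, 13.2 and 6.61 CPM in Etv1 shRNA libraries, against 1.68, 2.48 and 1.69 CPM in control shRNA libraries (2.34 ± 0.44). On the lower side, also named afterwards, Mmp12, the macrophage elastase, was at 90.6, 186 and 108 CPM in Etv1 shRNA libraries, against 669, 1520 and 741 CPM in control shRNA libraries (-2.93 ± 0.59). Mmp13 was at 54.7, 82.9 and 61.7 CPM in Etv1 shRNA libraries, against 249, 370 and 235 CPM in control shRNA libraries (-2.10 ± 0.30). Both elastase and collagenase were highest in replicate 2 of either hairpin. Lgals3, galectin-3, was at 1970, 2350 and 1850 CPM in Etv1 shRNA libraries, against 5050, 6610 and 5550 CPM in control shRNA libraries (-1.48 ± 0.13). The matrix proteases thus did not move as 1 group. Of 18 integrins and adhesion genes, 3 were higher and 6 lower. Itgav, the αV integrin chain, was at 1170, 1040 and 1030 CPM in Etv1 shRNA libraries, against 548, 541 and 538 CPM in control shRNA libraries (0.99 ± 0.067). All Etv1 shRNA libraries held more of it. Selplg, the P-selectin ligand, was at 95.8, 99.8 and 104 CPM in Etv1 shRNA libraries, against 234, 231 and 238 CPM in control shRNA libraries (-1.23 ± 0.066). Itgax, which encodes CD11c, was at 35.6, 45.8 and 43.6 CPM in Etv1 shRNA libraries, against 96.5, 113 and 104 CPM in control shRNA libraries (-1.32 ± 0.23). Among 20 genes of actin and cell shape, 6 were higher and 6 lower. Cdc42, a GTPase that forms filopodia, was at 298, 295 and 302 CPM in Etv1 shRNA libraries, against 965, 922 and 938 CPM in control shRNA libraries (-1.66 ± 0.064, adjusted p = 3.42e-13). Actg1, γ-actin, was at 603, 595 and 664 CPM in Etv1 shRNA libraries, against 1270, 1270 and 1280 CPM in control shRNA libraries (-1.04 ± 0.061). The spread within each hairpin was small beside these gaps. Rhob was at 75.3, 99.3 and 84.3 CPM in Etv1 shRNA libraries, against 309, 300 and 321 CPM in control shRNA libraries (-1.84 ± 0.14). Vcl, vinculin, was at 109, 109 and 111 CPM in Etv1 shRNA libraries, against 57.2, 73.4 and 55.2 CPM in control shRNA libraries (0.82 ± 0.087).

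Genes of the prostaglandin pathway went both ways, with 6 of 16 higher and 6 lower. Ptgir, the prostacyclin receptor, was at 11.2, 9.76 and 12.7 CPM in Etv1 shRNA libraries, against 52.8, 52 and 51.6 CPM in control shRNA libraries (-2.22 ± 0.13, adjusted p = 3.81e-11). Ptger2, the EP2 receptor for PGE2, was at 10.7, 11.3 and 11.6 CPM in Etv1 shRNA libraries, against 28, 29.6 and 34.8 CPM in control shRNA libraries (-1.45 ± 0.13). Of 22 cAMP targets, 8 were higher, or 5 without control shRNA replicate 3, and 5 were lower, among the lower Rgs1, which dampens G protein signalling, at 77, 66.4 and 93.9 CPM in Etv1 shRNA libraries, against 230, 245 and 221 CPM in control shRNA libraries (-1.55 ± 0.15).

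Genes of macrophage identity were lower in the main. Of 20 members, 3 were higher and 13 lower, and their summed level was 15700 to 16500 CPM in Etv1 shRNA libraries and 23900 to 24900 CPM in control shRNA libraries. Lyz2, lysozyme, was at 3980, 4080 and 3880 CPM in Etv1 shRNA libraries, against 9670, 11600 and 10600 CPM in control shRNA libraries (-1.42 ± 0.072, adjusted p = 9.05e-12). Fcgr3, an Fc receptor, was at 184, 203 and 181 CPM in Etv1 shRNA libraries, against 682, 597 and 720 CPM in control shRNA libraries (-1.82 ± 0.074). Csf1r fell (-0.61 ± 0.048), while Adgre1 rose (0.79 ± 0.21), as did Maf, a macrophage transcription factor named after its values were seen (1.29 ± 0.11). Markers of other cells moved beside these. All 4 tested dendritic cell markers of 11 were lower, among them Irf8 at 48.9, 43.4 and 48.7 CPM in Etv1 shRNA libraries, against 137, 144 and 145 CPM in control shRNA libraries (-1.60 ± 0.073), and Xcr1 and Siglech had no count. Of the 4, 1 was lower unstimulated and 2 with IL-4 and PGE2. Batf3 and Zbtb46, both on this list, were also raised at least 4-fold by IL-4 in wild type cells (log2 fold changes 4.38 and 3.19). The lower dendritic count thus overlaps the result for IL-4 responsive genes. The 11 dendritic markers summed to 91.9 to 101 CPM in Etv1 shRNA libraries, against 263 to 283 CPM in control shRNA libraries. The 15 neutrophil markers summed to 10 to 15.4 CPM in Etv1 shRNA libraries, against 48.3 to 52.4 CPM in control shRNA libraries, where Csf3r held most of it. Elane, Camp, Ly6g and Retnlg had no count. Of 7 tested monocyte markers 3 were higher and 3 lower. The 12 markers summed to 205 to 241 CPM in Etv1 shRNA libraries, against 58.9 to 63.8 CPM in control shRNA libraries. Vcan, versican, was at 186, 165 and 135 CPM in Etv1 shRNA libraries, against 15.5, 18 and 16.3 CPM in control shRNA libraries (3.29 ± 0.25), most of the sum in Etv1 shRNA libraries. Stromal markers summed to 11.4 to 14 CPM in Etv1 shRNA and 18.5 to 26 CPM in control shRNA libraries, with 2 higher and 2 lower of 6 tested. For erythroid and megakaryocyte markers, 2 of 3 tested were higher and the sum was 197 to 252 CPM in Etv1 shRNA and 57.7 to 122 CPM in control shRNA libraries, nearly all of it Pf4, while no globin gene of the list had a count. Mast cell and basophil markers summed to 1.97 to 2.7 CPM in Etv1 shRNA and 1.69 to 1.98 CPM in control shRNA libraries, and 1 of 2 tested was higher. The neutrophil list had 1 of 5 tested higher and 1 lower, and the lymphocyte list 1 of 3 higher and 1 lower. Counts of these short lists moved by 1 gene with some libraries left out. The part of other cell types in the results was not tested.

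**Figure D3:**
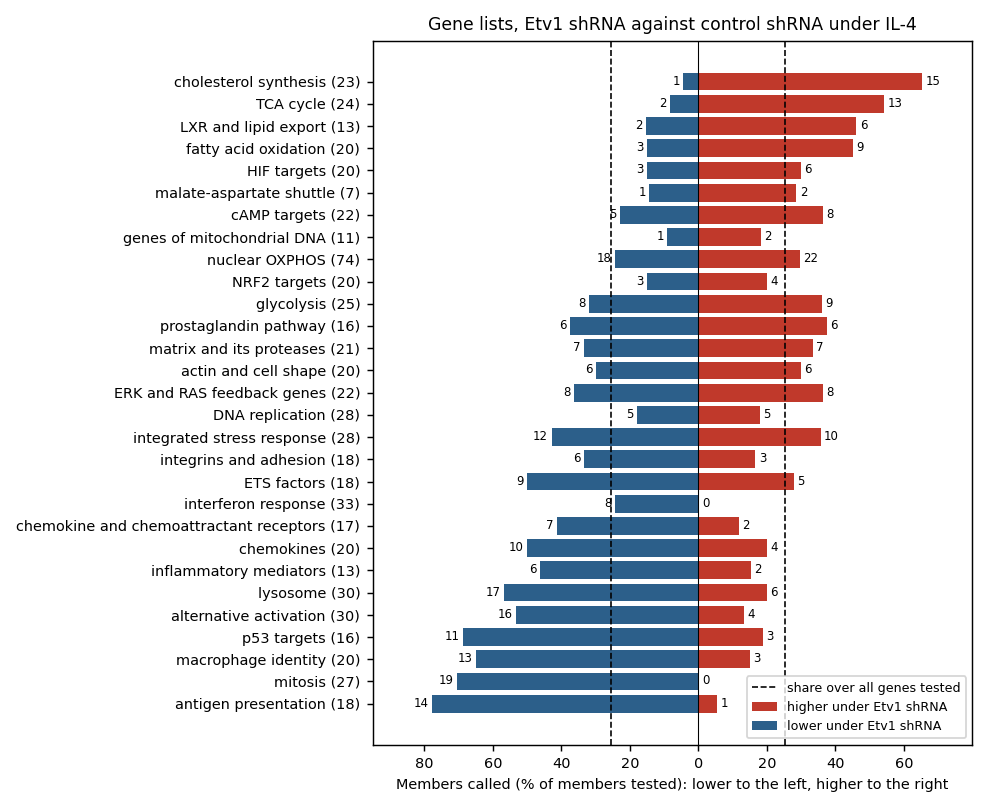
Members of each gene list called higher (right, red) or lower (left, blue) in Etv1 shRNA than in control shRNA cells under IL-4, as a percentage of the members tested, which stand in parentheses. Numbers at the bars are genes, and dashed lines mark the shares over all genes tested, 25.4% higher and 25.6% lower; sterol synthesis stands at 15 higher and 1 lower, mitosis at 0 and 19.

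Most of the changes under IL-4 were also called without IL-4. Of the 3145 higher genes, 75.6% were also higher in unstimulated cells, where 51.7% of all genes were called and 24.9% higher, and 73.8% also with IL-4 and PGE2, where 54.3% were called and 27.6% higher. Of the 3172 lower genes, 76.8% were lower unstimulated and 70.5% with IL-4 and PGE2, against 26.8% and 26.7% of all genes. These contrasts share no library. Among genes changed at least 2-fold under IL-4, 449 of 614 higher and 554 of 753 lower genes were called in that direction in all 3 conditions. Nedd4, Cttn, Mmp9, Cpne8, Ighm, Col4a6, Ptprk and Chpf were the 8 higher genes whose weakest fold change over the 3 conditions was largest. The 8 lower ones were Slamf7, Gdf15, Csf3r, Siglec1, Axl, Cd34, Cd300lf and Ass1. Siglec1, the sialic acid receptor sialoadhesin, was at 15.9, 8.93 and 31.3 CPM in Etv1 shRNA libraries, against 200, 101 and 153 CPM in control shRNA libraries under IL-4 (-3.02 ± 0.49), at -3.42 ± 0.50 unstimulated and at -3.30 ± 0.54 with PGE2. Axl, a receptor for apoptotic cells, was at 16.5, 22.8 and 24.7 CPM in Etv1 shRNA libraries, against 162, 192 and 156 CPM in control shRNA libraries (-2.99 ± 0.17), with -3.28 ± 0.17 unstimulated and -3.12 ± 0.19 with PGE2. Ass1, which makes argininosuccinate in arginine synthesis, was at 13.6, 15.7 and 16.4 CPM in Etv1 shRNA libraries, against 131, 106 and 109 CPM in control shRNA libraries (-2.92 ± 0.14), with -3.38 ± 0.15 unstimulated and -2.95 ± 0.14 with PGE2.

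A smaller set of genes had a hairpin effect under IL-4 that differed from the one in unstimulated cells. The test of that difference called 559 genes (4.51%), 335 with a more positive (2.71%) and 224 with a more negative effect under IL-4 (1.81%). With control shRNA replicate 1 or 3 left out, 361 and 360 were called, and with control shRNA replicate 2 left out, 762. Without control shRNA replicate 1 the split was 176 more positive and 185 more negative. The excess of more positive effects was thus absent without that library. Akap13 (ENSMUSG00000066406, chromosome 7, 75455534 to 75754609, plus strand), a scaffold for protein kinase A, was at 217, 203 and 203 CPM in Etv1 shRNA libraries, against 401, 397 and 410 CPM in control shRNA libraries under IL-4 (-0.96 ± 0.058). It averaged 203 CPM in Etv1 shRNA and 208 CPM in control shRNA cells without stimulus. The difference of the effects was -0.92 ± 0.082 (adjusted p = 3.08e-06). The 3 control shRNA libraries with IL-4 stood above every other hairpin library, and the effect also differed between IL-4 and IL-4 with PGE2 (-0.91 ± 0.082). Arg1 showed the same sign, with a difference of -3.87 ± 0.73 (adjusted p = 0.00843), although unstimulated libraries held only 10, 14 and 36 counts in Etv1 shRNA and 8, 4 and 2 counts in control shRNA cells. Rnf19b, a ubiquitin ligase, was at -1.24 ± 0.064 under IL-4 and -0.44 ± 0.065 unstimulated, and Sestd1 at -0.83 ± 0.056 under IL-4 and -0.04 ± 0.057 unstimulated. Fosl2, an AP-1 subunit, was at -0.61 ± 0.079 under IL-4 and 0.38 ± 0.081 unstimulated, and Slc39a6, a zinc transporter, at -0.65 ± 0.07 under IL-4 and 0.22 ± 0.071 unstimulated, so the sign turned between the conditions for both. In the other direction, St3gal5, which makes the ganglioside GM3, was at 1.09 ± 0.075 under IL-4 and -0.23 ± 0.071 unstimulated. Plscr1, a phospholipid scramblase, was at 1.49 ± 0.10 under IL-4 and 0.25 ± 0.087 unstimulated, and Jag1, a Notch ligand, at 0.11 ± 0.10 under IL-4 and -1.59 ± 0.094 unstimulated. Endod1 stood at -0.03 ± 0.058 under IL-4 and -0.72 ± 0.056 unstimulated, and Clec5a, a myeloid lectin receptor, at 0.32 ± 0.093 under IL-4 (adjusted p = 0.054 without control shRNA replicate 1) and -0.81 ± 0.092 unstimulated. The adjusted p-values of these 10 differences ran from 1.06e-06 to 4.84e-05.

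The effect under IL-4 differed from the one under IL-4 and PGE2 for 1438 genes (11.6%), with 691 more positive (5.58%) and 747 more negative under IL-4 (6.03%). The count ran from 1107 to 1471 with 1 library left out. Dusp5 had the smallest adjusted p among the more positive ones. It was higher in Etv1 shRNA cells under IL-4 (2.32 ± 0.096) and unstimulated (1.72 ± 0.084), and lower with IL-4 and PGE2 (-0.61 ± 0.072), where it averaged 262 CPM in Etv1 shRNA and 400 CPM in control shRNA cells. The difference was 2.93 ± 0.12 (adjusted p = 8.02e-12). Map2k4, a kinase upstream of JNK, was at -0.14 ± 0.045 under IL-4 and -1.04 ± 0.043 with PGE2. Isy1, a splicing factor, was at 0.50 ± 0.077 under IL-4 and -0.68 ± 0.067 with PGE2, Gcsh, of the glycine cleavage system, at 0.07 ± 0.067 under IL-4 and -1.02 ± 0.063 with PGE2, and the chaperone Hsph1 at -0.01 ± 0.049 under IL-4 and -0.75 ± 0.049 with PGE2. Among the more negative ones, Lpl was at 0.57 ± 0.068 under IL-4 and 2.10 ± 0.071 with PGE2, where it averaged 2450 CPM in Etv1 shRNA and 571 CPM in control shRNA cells. Serpinb6b, a protease inhibitor, was at -0.09 ± 0.075 under IL-4 and 1.70 ± 0.084 with PGE2, Specc1 at -0.01 ± 0.058 under IL-4 and 1.09 ± 0.059 with PGE2, and Nrp1, neuropilin 1, at -0.30 ± 0.062 under IL-4 and 0.72 ± 0.062 with PGE2. Itgax was lower under IL-4 alone, at -1.32 ± 0.23, against 0.01 ± 0.28 unstimulated and -0.01 ± 0.31 with PGE2; its difference from PGE2 was -1.31 ± 0.38 (adjusted p = 0.0417) and that from no stimulus had adjusted p = 0.059. Hmox1 was higher under IL-4 (1.46 ± 0.14) and with PGE2 (1.77 ± 0.15) and less so unstimulated (0.36 ± 0.14, difference 1.10 ± 0.20).

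The mitosis list varied by condition. With no member higher and 19 lower under IL-4, it had none higher and 26 lower unstimulated, with a median of -1.02, and 8 higher and 4 lower with PGE2, with a median of 0.0691. Of its 27 genes, 8 had a hairpin effect that differed between IL-4 and no stimulus and 18 one that differed between IL-4 and IL-4 with PGE2. Mki67 averaged 74.1 CPM in Etv1 shRNA and 191 CPM in control shRNA cells unstimulated, 50.9 ± 1.88 CPM in Etv1 shRNA and 92.3 ± 10.2 CPM in control shRNA cells under IL-4 (SD, n = 3 each), and 45.4 CPM in Etv1 shRNA and 53.6 CPM in control shRNA cells with PGE2. The gap between the hairpins was thus widest without stimulus. In alternative activation, 8 genes were higher and 5 lower unstimulated, and 5 higher and 18 lower with PGE2. For sterol synthesis, 14 were higher and none lower unstimulated, and 19 higher and none lower with PGE2.

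**Figure D4:**
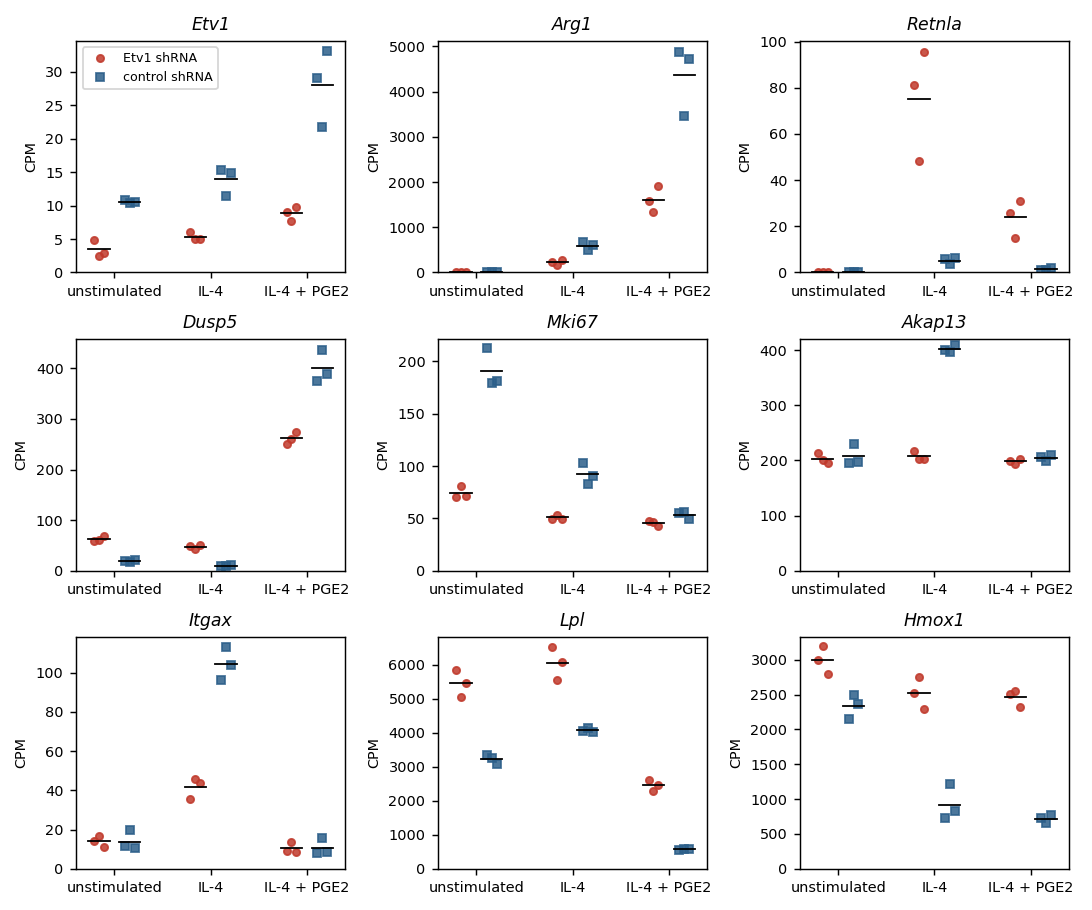
Level in CPM (y axis, from 0) of 9 genes in unstimulated cells, with IL-4 and with IL-4 and PGE2. Red circles are Etv1 shRNA and blue squares control shRNA libraries, 3 each, and black lines the group means; Akap13 reaches 397 to 410 CPM only in control shRNA cells with IL-4, and Dusp5 lies higher in Etv1 shRNA cells except with PGE2.

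**Figure D5:**
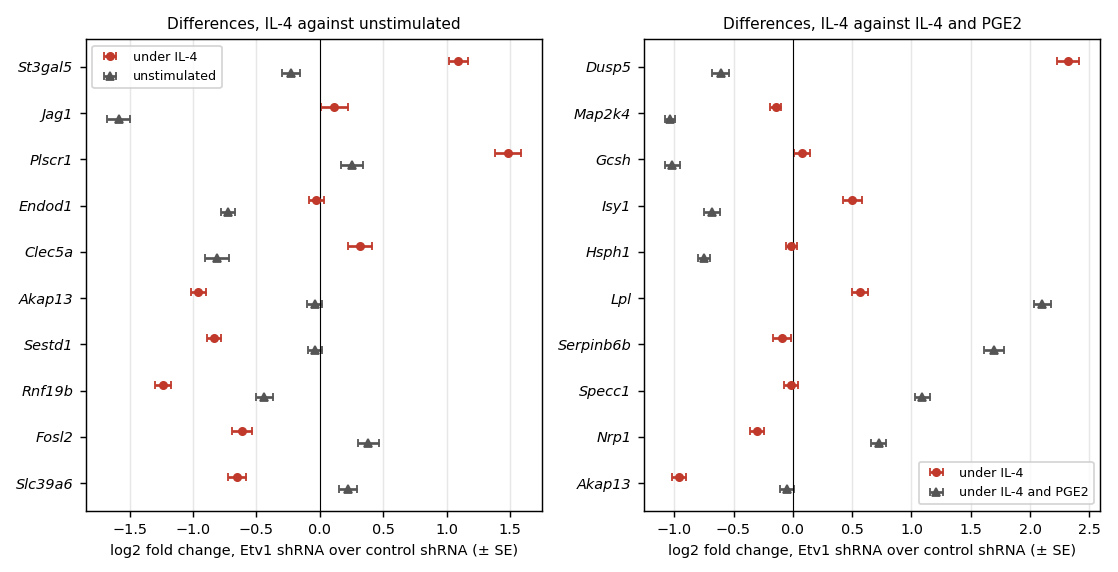
Log2 fold change of Etv1 shRNA over control shRNA (± SE) for the genes with the smallest adjusted p of a difference between conditions, 5 of each sign. Red circles are IL-4; grey triangles are unstimulated cells on the left and IL-4 with PGE2 on the right, where Dusp5 lies at 2.32 and -0.61.

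Wild type cells given IL-4 carried no hairpin, and the labels place the lentivirus in selected experiments, so experiment and transduction cannot be told apart in a comparison with them. All 30 libraries were scaled together for this description. Of the 1367 genes changed at least 2-fold, the wild type level under IL-4 lay nearer the control shRNA level for 999 (73.1%) and nearer the Etv1 shRNA level for 368. On that scale Nedd4 averaged 53.8 CPM in Etv1 shRNA, 0.726 CPM in control shRNA and 2.33 ± 0.507 CPM in wild type cells (SD, n = 3). Slamf7 averaged 3.98 CPM in Etv1 shRNA, 87.3 CPM in control shRNA and 124 ± 10.7 CPM in wild type cells. Both lay nearer the control hairpin. Other genes lay with the Etv1 shRNA cells. Retnla averaged 71.7 CPM in Etv1 shRNA, 4.97 CPM in control shRNA and 59.2 ± 10.8 CPM in wild type cells. Ighm averaged 22.5 CPM in Etv1 shRNA, 1.2 CPM in control shRNA and 23.9 ± 1.82 CPM in wild type cells. Ly6a averaged 9.67 CPM in Etv1 shRNA, 80.7 CPM in control shRNA and 0.262 ± 0.154 CPM in wild type cells. All 8 called interferon genes lay nearer the Etv1 shRNA level, and all 19 called mitosis genes nearer the control shRNA level. Other lists went both ways. Wild type lay nearer the Etv1 shRNA level for 12 of 16 called sterol synthesis genes and 9 of 12 fatty acid oxidation genes. The same held for 10 of 14 p53 targets and 10 of 14 chemokines. It lay nearer the control shRNA level for 14 of 20 alternative activation genes and 19 of 23 lysosomal genes. For some genes both transduced groups were far from wild type, as for Itgax, at 39.8 CPM in Etv1 shRNA, 99.9 CPM in control shRNA and 743 ± 70.5 CPM in wild type cells. Chil3 was at 5.87 CPM in Etv1 shRNA, 9.49 CPM in control shRNA and 262 ± 5.88 CPM in wild type cells.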

How the data were processed

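RNA-seq libraries of mouse bone marrow derived macrophages were made with a stranded mRNA kit, per the labels. The authors deposited whole-number counts per gene and library. Per the submitters' processing notes, STAR, featureCounts and GRCm38 were used, in versions not given in the sources used here, and whether counting used the strand is not given either. Reads shared by paralogs, such as class I genes, or by overlapping genes may therefore be split or assigned to either gene.

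All 18 hairpin libraries entered 1 edgeR 4.0.16 robust quasi-likelihood fit (R 4.3.3) with TMM scaling, filterByExpr and 1 coefficient per group, which tested 12382 genes with Benjamini-Hochberg adjustment. Differences between conditions were contrasts of the same fit. A separate fit of the 12 wild type libraries (12824 genes) set the IL-4 responsive genes at an adjusted p under 0.05 and 2-fold. SE is the log2 fold change divided by the root of F. Gene IDs matched the GENCODE mouse annotation for 42548 of 43629 rows (97.52%), and coordinates are GRCm38. Replicates differed by more than sampling noise.

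The gene lists and rules were chosen with earlier results of these data known. Named were Etv1, Got1, Retnla, Arg1 and Chil3, the 15 largest changes per direction (at least 5 CPM in the higher group, no overlap), up to 4 members of each of 36 lists by adjusted p, the 5 smallest adjusted p of each sign per difference between conditions, and 8 per direction called in all 3 conditions. Genes outside these rules are marked as named after their values were seen. Adgre1 and Itgam, in the check of the macrophage label, are among those. Some genes that these rules select are not reported here. On simulated counts, 97 of 100 2-fold and 99 of 100 4-fold genes of the IL-4 contrast were recovered, with 6 unchanged genes called, among 12179 tested. Only those genes, averaging at least 5 CPM, were changed. Every other gene had the same mean in all libraries, and noise was independent between libraries. The real contrast called 51.0% of genes, so its rate of false calls was not measured by this simulation. DESeq2 1.42.0, other scaling, other filters, a replicate block, the 6 libraries alone and left-out libraries were alternatives.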

Additional observations from a re-analysis of the deposited data

Results flagged for a closer look

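For 33 of 161 genes named in the text, the hairpin effect under IL-4 differed from that in unstimulated cells, and for 42 it differed from that under IL-4 and PGE2, by edgeR's test of the difference itself at an adjusted p under 0.05. Values below are the log2 effect of Etv1 shRNA over control shRNA under IL-4 minus the effect in the other condition. The genes were in part chosen by this test, and 4.51% and 11.6% of all genes passed it.

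Against unstimulated cells, the IL-4 effect was more negative for the IL-4 responsive genes Arg1 (-3.87), Socs1 (-2.27), Ptgs1 (-1.69), Clec7a (-0.963) and Tgm2 (-0.679). It was more negative for Gadd45a (-1.1), Slc25a13 (-0.921), Npc1 (-0.42), Etv3 (-0.734) and Fosl2 (-0.996). The same held for Akap13 (-0.915), Sestd1 (-0.793), Rnf19b (-0.798), Slc39a6 (-0.874), Hsph1 (-0.377) and Serpinb6b (-0.528). More positive effects were found for Jag1 (1.7), St3gal5 (1.31), Plscr1 (1.23), Clec5a (1.13), Endod1 (0.697), Fcrl1 (1.24) and Ccl3 (1.27). Others were Hmox1 (1.1), Stard4 (0.83), Tnfaip3 (0.701), Irf8 (0.528), Dusp5 (0.605) and Dusp6 (0.431). The remaining ones were Mki67 (0.504), Fen1 (0.345), Gcsh (0.344) and Specc1 (0.344). Adjusted p-values were 0.0393 for Gcsh, 0.0384 for Clec7a and 0.038 for Dusp6, and lower for the others.

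Against IL-4 with PGE2, the mitosis genes had a more negative effect under IL-4, with Ccnb1 at -1.22, Anln at -1.19, Prc1 at -0.836 and Mki67 at -0.629. The stress genes Atf3 (-1.11) and Ddit3 (-0.659) had the same sign, as did Slc25a13 (-1.1), Sdhc (-0.245), Lpl (-1.54) and Tent5c (-0.783). Further negative differences were those of Serpinb6b (-1.79), Specc1 (-1.11), Nrp1 (-1.02), Akap13 (-0.906), Sestd1 (-0.637), Plscr1 (-0.618) and Endod1 (-0.338). Surface and signalling genes with a negative difference were Itgax (-1.31), Selplg (-0.418), Rgs1 (-0.705), Cdc42 (-0.346) and Irf8 (-0.466). On the positive side stood the ERK-linked genes Dusp5 (2.93), Fosl1 (1.26), Spred2 (0.734) and Fosl2 (0.352). The sterol synthesis genes Stard4 (0.83), Sqle (0.674) and Msmo1 (0.431) and the lysosomal gene Npc2 (0.333) were also positive, while 7 of the 23 sterol genes differed in all and the list's median was 0.582 under IL-4 and 0.629 with PGE2. Positive differences were also found for Isy1 (1.19), Gcsh (1.09), Map2k4 (0.892), Hsph1 (0.735), Jag1 (0.699) and St3gal5 (0.377). Csf1 (1.24), Vcan (1.16), Clec7a (1.09), Maf (0.782), Itgav (0.496) and Actg1 (0.313) completed them. The adjusted p-values closest to the threshold were 0.0438 for Fosl2, 0.0436 for Rgs1, 0.0417 for Itgax and 0.0413 for Sdhc.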

How the results depend on the processing

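The number of genes called under IL-4 was 6317, and it was 6322 with DESeq2's size factors, 5939 without the filter, 6308 with a stricter filter, 5940 with DESeq2's test, 5825 from the 6 IL-4 libraries alone and 5548 to 5981 with 1 library left out. The difference from unstimulated cells called 559 genes, 360 to 762 with 1 library left out and 673 with DESeq2; the difference from IL-4 with PGE2 called 1438, and 1107 to 1471 with 1 left out. Among genes raised by IL-4 in wild type cells, 325 were called, 301 to 325 with 1 library left out, 125 when the set was cut at 4-fold and 1664 at any fold. Among lowered genes it was 196, 167 to 186, 28 and 1582, with set size changed by construction. Of 206 calls of named genes, 194 held under every alternative and 12 were lost under at least 1. None reversed. The 20 differences between conditions chosen by smallest adjusted p held under the alternatives run; the other differences named were not refitted. Of list counts with 1 library left out, 58 moved by over 1.5 times and 374 did not; the cause was not tested.

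The replicate numbers are in the labels of all groups. Under a replicate block 6739 genes were called under IL-4, 984 for the difference from unstimulated cells and 1997 for that from IL-4 with PGE2. Same-numbered libraries correlated in their deviations at a median of 0.153 over 45 pairs (-0.0526 to 0.49), with 34 above 0.1 and 1 of the 3 between the IL-4 groups, so the rule that every pair exceed 0.1 was not met and the block was not used, although the median was positive. A floor of 3 counts, 0.22 to 0.34 CPM, limits what was detectable.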
